A study of Homo sapiens with 4 samples.

Results

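The results concern 10 genes for neuropeptide precursors and granins in 2 human cancer cell lines: POMC, CCK, CHGA, CHGB, SCG2, SCG5, VGF, NTS, PCSK1N and GAL. They were taken by name from a table of 43296 gene names, and all 10 were found, as 20 of its 61838 features. The genes were selected on their counts in these same 4 libraries, treated against control, so their levels and ratios are a description and carry no test. H1299 is a non-small cell lung cancer line and HCT116 a colorectal cancer line, both used at passage 5 to 10. Each line was profiled by 5′ single-cell RNA sequencing of polyadenylated RNA, once with the solvent DMSO and once with DAC+SB. DAC is decitabine, which inhibits DNA methyltransferases, and was present at 500 nM for 72 h. SB939 inhibits histone deacetylases and was present at 500 nM for 18 h, and compound-containing medium was renewed at intervals of 24 h. Each combination was 1 library, so no difference between libraries has a replicate check, and every interval below covers counting error only.

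Neuropeptides are made as longer precursors that enter the regulated secretory pathway of neurons and endocrine cells. Convertases cut the precursor at pairs of basic residues, further enzymes trim and amidate the ends, and the products wait in dense-core vesicles until a stimulus releases them. Granins are acidic proteins of those vesicles that help to form them and are also cut into peptides. In the lung and the colon these genes are used as marks of neuroendocrine and enteroendocrine cells, and most epithelial cells keep many of them silent.

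The promoters are shown first, because both compounds act on chromatin and the 5′ chemistry reads near transcript starts. RefSeq windows on GRCh38.p14 matched 7 of the 10 genes with 8 windows. CHGB, SCG2 and GAL were not matched. The sequences below are the 250 bases before a RefSeq start, on the transcribed strand. Capitals mark the cAMP response element TGACGTCA, the AP-1 site TGANTCA and the TATA core TATAA. POMC is at chr2:25168581-25168830 (minus strand), CHGA at chr14:92922900-92923149 (plus), VGF at chr7:101165570-101165819 (minus) and CCK at chr3:42266186-42266435 (minus). POMC, CHGA and CCK are shown as genes almost silent with DMSO, and VGF as a gene already read with DMSO in both lines.
POMC: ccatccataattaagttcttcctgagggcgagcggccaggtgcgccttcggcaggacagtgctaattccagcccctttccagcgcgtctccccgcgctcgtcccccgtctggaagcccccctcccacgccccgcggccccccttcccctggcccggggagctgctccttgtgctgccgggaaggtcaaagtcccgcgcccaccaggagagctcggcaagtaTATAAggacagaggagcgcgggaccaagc
CHGA: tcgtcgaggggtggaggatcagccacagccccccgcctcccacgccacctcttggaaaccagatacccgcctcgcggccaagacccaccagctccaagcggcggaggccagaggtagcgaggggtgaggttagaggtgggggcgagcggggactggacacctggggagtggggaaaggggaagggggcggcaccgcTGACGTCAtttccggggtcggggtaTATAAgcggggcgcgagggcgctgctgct
VGF: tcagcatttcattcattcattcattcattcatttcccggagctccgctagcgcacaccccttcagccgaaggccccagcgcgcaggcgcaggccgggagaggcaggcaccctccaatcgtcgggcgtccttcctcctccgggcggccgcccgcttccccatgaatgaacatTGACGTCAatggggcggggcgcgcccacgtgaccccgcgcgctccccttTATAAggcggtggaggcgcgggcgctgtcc
CCK: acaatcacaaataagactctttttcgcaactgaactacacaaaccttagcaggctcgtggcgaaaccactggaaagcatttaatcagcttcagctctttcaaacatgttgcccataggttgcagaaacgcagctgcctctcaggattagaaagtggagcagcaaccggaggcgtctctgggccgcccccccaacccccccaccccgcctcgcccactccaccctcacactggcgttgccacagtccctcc

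POMC, CHGA and VGF each hold the TATA core close to the start, from base -29 to -25 in POMC and CHGA and from -30 to -26 in VGF. The core, searched on the transcribed strand, is in 13.6% of all 35116 windows. It was added to the search after the sequences were seen, and the longer TATAAA is in 6.80% of windows and in none of these 3. CHGA and VGF hold the full cAMP response element, from -54 to -47 and from -79 to -72, which on either strand is in 1.65% of all windows. The CCK window shown holds none of the 3 marked motifs and 1 GC box (GGGCGG, either strand), which 42.6% of windows hold. A second CCK window, at chr3:42263948-42264197, holds TATAAA far from the start, from -211 to -206. PCSK1N holds the AP-1 site, present in 6.57% of windows, and NTS and SCG5 hold the shorter element TGACG without the full one, which contains it. The shorter element is present in 21.2% of windows. The core of the RE1 element, which the repressor REST binds, was in 18 of all windows and in none of these 8. A match of letters is not a binding site, and no match says only that the letters are not in these windows.

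The windows differed in CpG content, the sequence that DNA methyltransferases act on. VGF had 27 CpGs in 250 bases and an observed over expected ratio of 1.01, higher than 92.2% of all windows. CHGA had 21 CpGs with a ratio of 0.735, POMC 20 with 0.734 and PCSK1N 15 with 0.541. The 2 CCK windows had 10 and 5 CpGs with ratios of 0.579 and 0.687, SCG5 had 8 with 0.469 and NTS 2 with 0.141. The median over all windows was 11 CpGs and a ratio of 0.558. The CCK windows were thus below the median in CpG count and above it in the ratio. Methylation was not measured in these libraries.

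The 4 libraries together held 15289 cells, with 38927267 to 64524196 counts of genes and transposable elements (TE) per library. Levels are given as counts per 1000000 of that total (CPM). The treated HCT116 library was the shallowest, with a median of 8449 counts per cell against 15784.5 to 17369.5 in the others, and 1086 of its 4327 cells had over 25% mitochondrial counts. Pairs of libraries shared 18 to 30 cell barcodes, at most 0.805% of the smaller library. The 10 H1299 markers summed to 3017 and 1244 CPM in the H1299 libraries (DMSO first) and to 84.7 and 291 in HCT116. The HCT116 markers summed to 0.403 and 14.8 CPM in H1299 and to 151 and 89.0 in HCT116, so each sum was higher in its own line. VIM made up most of the H1299 marker sum, with 147273 and 71879 counts in the H1299 libraries. Single markers went the other way in the treated libraries: COL4A1 and COL4A2 were higher in HCT116, and ESRP1, LGALS4 and TSPAN8 in H1299. EPCAM, an epithelial adhesion gene among the HCT116 markers, went from 1 count to 279 in H1299. The 5 blood cell markers summed to at most 1.46 CPM in any library. Their sum was also higher with DAC+SB, from 0.0620 to 0.641 CPM in H1299 and from 0.112 to 1.46 in HCT116. Over all genes that reached 100 counts in 1 library of a line, the median log2 ratio of DAC+SB over DMSO was -0.07 in H1299 and -0.23 in HCT116. A median-of-ratios size factor adds 0.18 to every H1299 ratio and 0.31 to every HCT116 ratio.

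Most of the 10 genes were higher with DAC+SB, and none with at least 100 counts was 4-fold lower. In H1299, 9 genes reached 100 counts in 1 of the libraries and 6 of them passed 4-fold: POMC, CCK, CHGA, SCG5, PCSK1N and GAL. In the same comparison 11.0% of all 14610 genes passed 4-fold upward and 0.349% downward. In HCT116, 7 genes reached 100 counts and 5 passed 4-fold: POMC, CCK, CHGA, VGF and PCSK1N. There 9.63% of 13539 genes passed 4-fold upward and 3.69% downward, or 1304 and 500 genes, against 1468 and 264 with the size factor. The genes were chosen with these values known, so nothing is read from the counts. The median log2 ratio of the genes at the minimum was 4.50 in H1299 and 9.03 in HCT116. In both lines most of those genes reached 100 counts only with DAC+SB, which favours high ratios. Nothing is therefore read from these medians either. Below the minimum were NTS in both lines and CHGB and SCG5 in HCT116.

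**Figure D1:**
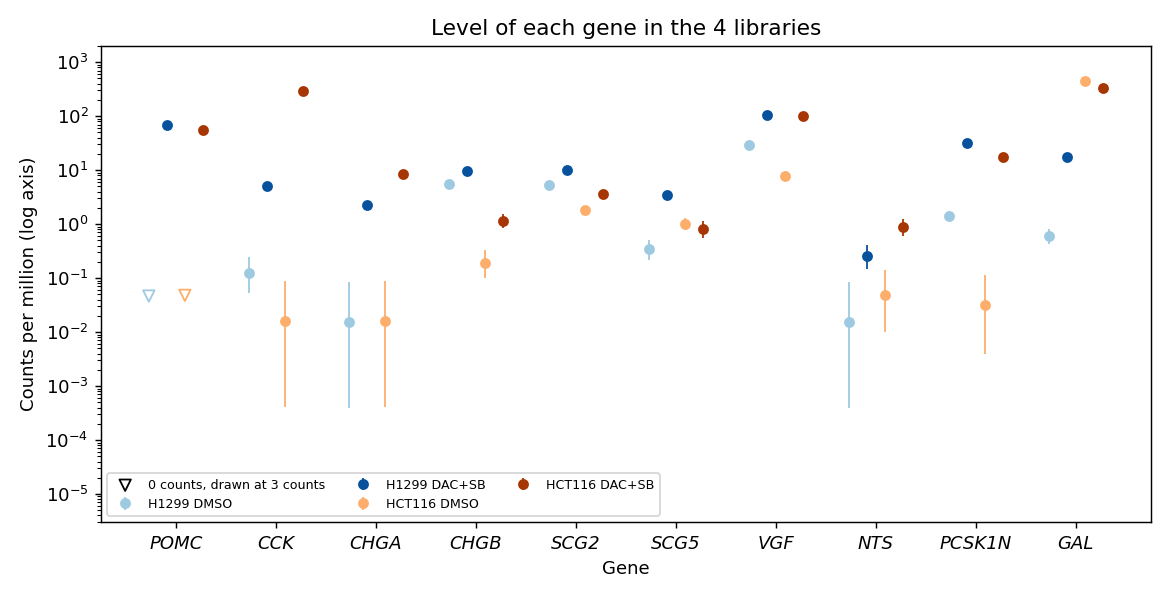
Level of each gene in CPM (log axis) in the 4 libraries. Points are 1 library each, bars are exact Poisson 95% intervals, and open triangles are genes at 0 counts drawn at 3 counts. POMC is drawn at the floor in both DMSO libraries and lies at 68.7 and 56.3 CPM with DAC+SB, while GAL is highest in HCT116 DMSO at 456 CPM.

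POMC, on chromosome 2 (25160853 to 25168903, minus strand, GENCODE 29 on GRCh38), encodes pro-opiomelanocortin, the precursor of ACTH, melanocortins and beta-endorphin. No count was listed in either DMSO library. With DAC+SB it had 4286 counts in H1299, or 68.7 CPM (66.6 to 70.7), and 2193 in HCT116, or 56.3 CPM (54.0 to 58.7). Counts were thus listed in both treated libraries and in neither DMSO library. The share of all genes with this pattern was not computed, and nothing is read from it. With 3 counts in place of each listed 0, the ratio was 1477-fold in H1299 and 1176-fold in HCT116. Among the treated libraries the log2 ratio of HCT116 over H1299 was -0.29 (-0.36 to -0.21), a difference beyond counting error.

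The deposited table splits each of these genes into features without a number and features with a number after the name, whose meaning was not given in the sources used here. No numbered feature was listed in any library below 10 counts, while those with no number appear down to 1 count, so up to 9 counts of a numbered feature may be missing from a library. With 9 such counts added to each DMSO library, POMC was at least 369-fold higher in H1299 and at least 294-fold higher in HCT116. POMC feature 1 held 3645 of the 4286 counts in treated H1299 and 1853 of the 2193 in treated HCT116, or 85.0% and 84.5%. The remaining 641 and 340 counts had no number. Over those alone, POMC was at least 7.79 and 7.51 higher on the log2 scale.

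CCK, on chromosome 3 (42257825 to 42266207, minus strand), encodes cholecystokinin, a gut hormone and brain neuropeptide. Its counts went from 8 with DMSO to 315 with DAC+SB in H1299, and from 1 to 11330 in HCT116. The treated HCT116 library thus stood apart from the other 3, at 291 CPM (286 to 296) against 5.05 (4.50 to 5.63) in treated H1299. The log2 ratio was 5.35 (4.35 to 6.57) in H1299 and 14.15 (11.68 to 19.46) in HCT116, where the single DMSO count leaves the interval wide. CCK feature 1 held 260 of 315 counts in treated H1299 and 10274 of 11330 in treated HCT116 and was listed in neither DMSO library. Over features without a number the counts went from 8 to 55 and from 1 to 1056, with log2 ratios of 2.83 and 10.73. With 9 unlisted counts added to each DMSO library, the ratios over all features were 4.26 and 10.83. An annotated gene on the other strand, AC018358.1, overlaps CCK, and nothing states whether the counting used strand, so the reads of both cannot be told apart.

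GAL, on chromosome 11 (68683779 to 68691175, plus strand), encodes galanin, a neuropeptide of the gut and the brain. Unlike POMC and CCK, it was abundant in HCT116 with DMSO. In H1299 it went from 39 counts to 1079, at a log2 ratio of 4.84 (4.38 to 5.34). In HCT116 it went from 28552 counts to 13012, or from 456 to 334 CPM, at a log2 ratio of -0.45 (-0.48 to -0.42). With the size factor the HCT116 ratio was -0.14. Over features without a number the H1299 ratio was 3.81, from 21 to 285 counts, and the HCT116 ratio -1.10, from 6143 to 1785 counts. Over all features, the H1299 ratio minus the HCT116 ratio was 5.29 (4.82 to 5.75).

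NTS, on chromosome 12 (85874295 to 85882992, plus strand), encodes neurotensin, a peptide of gut endocrine cells. It stayed rare in every library, with 1 and 16 counts in H1299 (DMSO first) and 3 and 34 in HCT116. Its log2 ratios were 4.05 (1.36 to 9.44) and 4.19 (2.52 to 6.54). With 9 unlisted counts added to each DMSO library they were 0.73 and 2.19. The highest NTS level was 0.873 CPM, in treated HCT116.

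The chromogranins differed from one another. CHGA, on chromosome 14 (92923080 to 92935293, plus strand), encodes chromogranin A, the common serum and tissue marker of neuroendocrine tumours. It had 1 count in each DMSO library, 141 in treated H1299 and 324 in treated HCT116. Its log2 ratios were 7.19 (4.69 to 12.50) and 9.03 (6.54 to 14.33), and the difference between lines, -1.84 (-5.85 to 2.17), was within counting error. With 9 unlisted counts added to each DMSO library the CHGA ratios were 3.87 and 5.70. CHGB, on chromosome 20 (5911430 to 5925361, plus strand), encodes chromogranin B and had 364 counts in H1299 already with DMSO. With DAC+SB it had 603, at a log2 ratio of 0.78 (0.59 to 0.97). In HCT116 CHGB had only 12 and 45 counts, and its log2 ratio was 2.59 (1.65 to 3.65), or 1.79 with 9 unlisted counts added to the DMSO library. CHGB therefore followed the line more than the treatment, with both H1299 libraries above both HCT116 libraries.

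SCG2, on chromosome 2 (223596940 to 223602503, minus strand), encodes secretogranin II, the precursor of secretoneurin. It had the same order of libraries as CHGB, with 345 and 616 counts in H1299 and 113 and 142 in HCT116. Its log2 ratios of 0.88 (0.69 to 1.08) and 1.02 (0.65 to 1.39) differed between lines by -0.13 (-0.54 to 0.27), within counting error. SCG5, on chromosome 15 (32641676 to 32697098, plus strand), encodes 7B2, a chaperone of the convertase PC2. In H1299 it had 22 and 215 counts and a log2 ratio of 3.34 (2.70 to 4.04). In HCT116 it had 63 and 32 counts and a log2 ratio of -0.29 (-0.95 to 0.34), which was 0.02 with the size factor and 0.14 as a mean over cells, so its sign there depends on the scaling. The H1299 value was 1.82 without SCG5 feature 1, which was listed only in that treated library with 140 counts. AC123768.1 overlaps SCG5 on the other strand, so their reads cannot be told apart either.

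VGF, on chromosome 7 (101162509 to 101165593, minus strand), encodes a granin-like precursor induced by nerve growth factor. It was read in all 4 libraries, with 1897 and 6429 counts in H1299 and 498 and 3883 in HCT116. Its levels were 29.4 CPM (28.1 to 30.8) and 7.95 (7.27 to 8.68) with DMSO. With DAC+SB they were 103 CPM (100 to 106) in H1299 and 99.8 (96.6 to 103) in HCT116, whose intervals overlap. The lines thus differed with DMSO and not beyond counting error with DAC+SB, where the log2 ratio of HCT116 over H1299 was -0.05 (-0.10 to 0.01). The treatment ratio was 3.50-fold (3.33 to 3.69) in H1299 and 12.5-fold (11.4 to 13.8) in HCT116. VGF feature 1 held 22.4% and 19.9% of its counts in H1299 and 38.4% and 40.2% in HCT116, so its share differed more by line than by treatment.

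PCSK1N, on chromosome X (48831094 to 48835633, minus strand), encodes proSAAS, an inhibitor of the convertase PC1/3. It had 92 and 2020 counts in H1299 and 2 and 672 in HCT116. Its log2 ratios were 4.50 (4.20 to 4.82) and 9.08 (7.22 to 12.13), which differed by -4.57 (-6.60 to -2.55). With 9 unlisted counts added to the HCT116 DMSO library, the HCT116 ratio was 6.62. In H1299, PCSK1N feature 1 held 14.1% of the counts with DMSO against 77.9% after treatment, and over features without a number the H1299 ratio was 2.55. GAL showed the same kind of shift in H1299, where feature 1 went from 46.2% to 73.6% of its counts. Both treated libraries of PCSK1N were above both DMSO libraries, an order whose share over all genes was not computed.

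**Figure D2:**
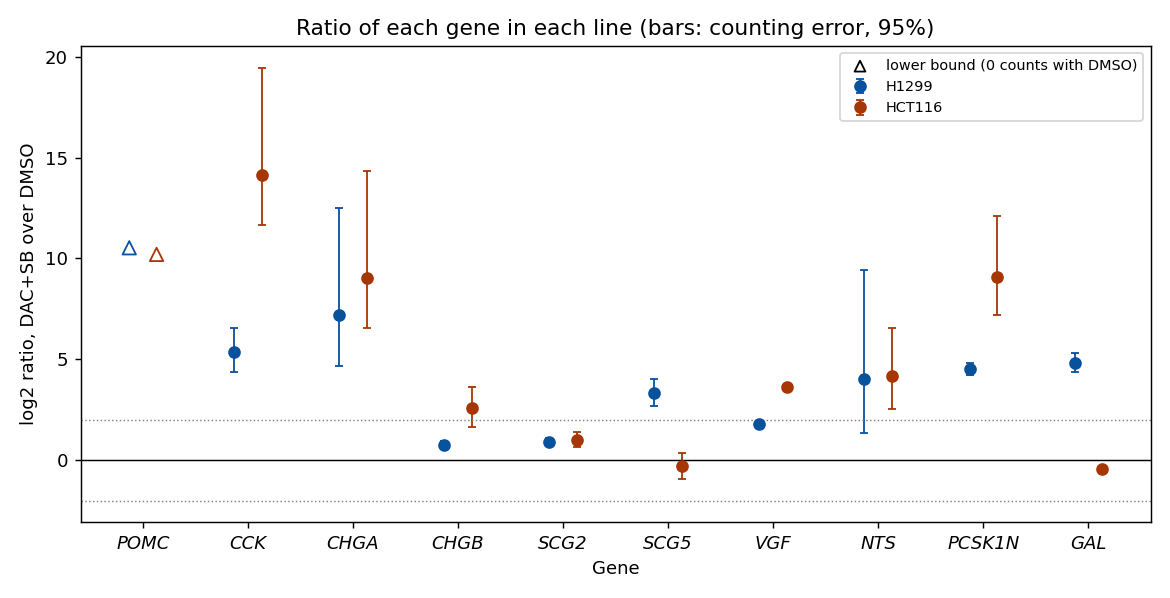
log2 ratio of DAC+SB over DMSO for each gene in H1299 and HCT116, with exact conditional 95% intervals for counting error and dotted lines at 4-fold. Open triangles are the POMC ratios with 3 counts in place of the listed 0, at 10.53 and 10.20. CCK in HCT116 is the highest value at 14.15, and GAL in HCT116 lies below 0 at -0.45, as does SCG5 at -0.29, whose sign flips to 0.02 with the size factor and 0.14 as a mean over cells.

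The order of the libraries thus took several forms. For POMC, CCK, CHGA, NTS, PCSK1N and VGF both treated libraries were above both DMSO libraries in listed counts. For CHGB and SCG2 both H1299 libraries were above both HCT116 libraries. GAL was highest in HCT116 DMSO, and SCG5 was highest in H1299 DAC+SB. The DMSO neighbours of POMC, CCK, CHGA and NTS, and the HCT116 libraries of SCG5, had overlapping intervals. The share of all genes with each order was not computed. Since the genes were chosen on treated against control counts, nothing is read from how many took an order.

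Levels per library can come from many cells with few counts or from few cells with many. To compare libraries of different depth, each cell was thinned to 3300 counts, which left out 402 treated HCT116 cells and none elsewhere. With DAC+SB, POMC was then found in 17.8% of H1299 cells (16.6 to 19.1) and 15.7% of HCT116 cells (14.6 to 16.9), and in 0 DMSO cells of either line. Without thinning, the POMC shares were 53.2% and 32.8%, and 0 of 3578 and 0 of 3658 DMSO cells allow shares of cells with a listed count up to 0.0838% and 0.0820% at 3 cells, or 0.103% and 0.101% as the upper limits of the Clopper-Pearson interval. CCK was found in 1.32% of treated H1299 cells and 41.3% of treated HCT116 cells (39.7 to 42.8), or 5.48% and 58.0% without thinning. VGF went from 8.47% to 24.5% in H1299 and from 2.43% to 21.5% in HCT116. GAL went from 0.224% to 5.07% in H1299 and from 73.0% to 58.7% in HCT116. PCSK1N went from 0.335% to 9.07% in H1299 and from 0 cells to 5.38% in HCT116. The other 5 genes were each found in at most 3.73% of cells of any library. Unthinned cells had medians of 17369.5 (H1299) and 16257.5 (HCT116) counts with DMSO, against 15784.5 and 8449 with DAC+SB. No cell type known to lack these genes was in the treated libraries, so the part of the shares that free RNA gave was not measured.

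**Figure D3:**
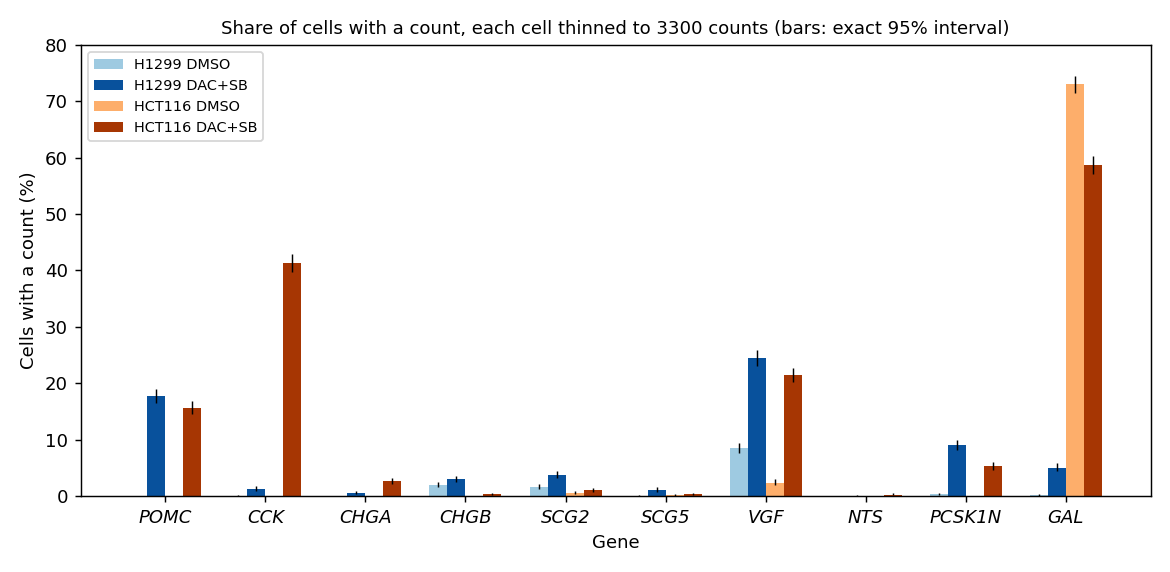
Percent of cells with a count of each gene after each cell was thinned to 3300 counts, with exact Clopper-Pearson 95% intervals. POMC is at 17.8% and 15.7% in the treated libraries, CCK at 41.3% in treated HCT116, and GAL is at 73.0% and 58.7% in the HCT116 libraries.

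POMC was spread over many cells at low counts. Of the treated H1299 cells, 53.2% had at least 1 POMC count, 29.8% at least 2, 4.24% at least 5 and 5 cells at least 10, with a maximum of 12. In treated HCT116 no cell had more than 6. The 373 H1299 cells and 433 HCT116 cells with most POMC counts held 40.7% and 50.8% of its counts. CCK was more uneven in treated HCT116, where 17.5% of cells had at least 5 counts, 305 cells at least 10 and 1 cell 73. Its Fano factor, the variance over the mean of thinned counts, was 3.11, against 1.21 and 1.12 for POMC in treated H1299 and HCT116. VGF had Fano factors of 1.65 and 2.17 in the treated libraries and 1.18 and 1.10 with DMSO. GAL in HCT116 had 1.30 with DMSO and 1.41 with DAC+SB. A value near 1 is that of counts spread without excess variance, and the factor also rises with the mean.

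**Figure D4:**
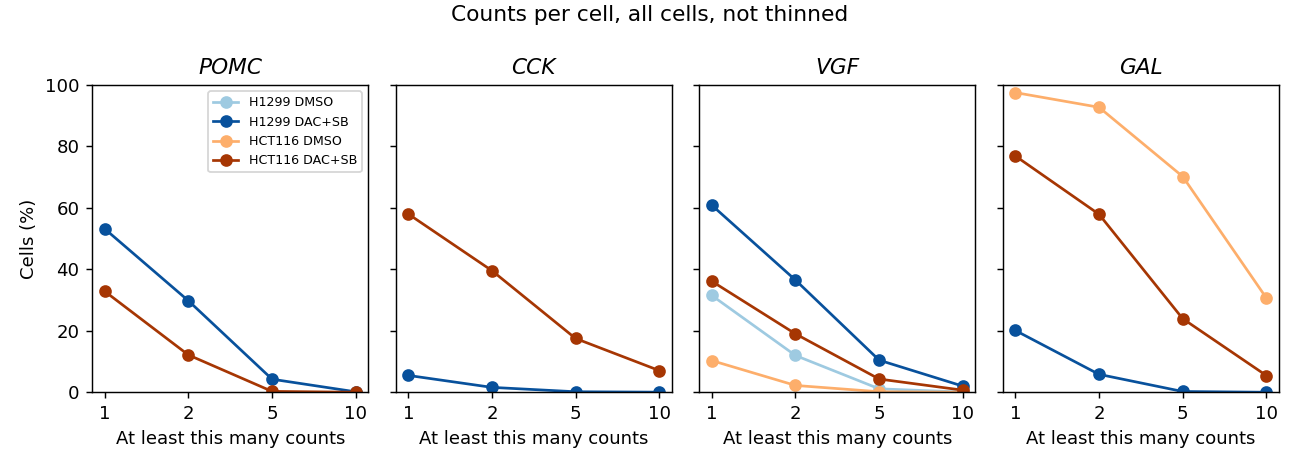
Percent of cells with at least 1, 2, 5 and 10 counts of POMC, CCK, VGF and GAL, not thinned, for libraries with at least 100 counts of the gene. In treated HCT116, CCK reaches 58.0% of cells at 1 count and keeps 7.05% at 10 counts, whereas POMC in treated H1299 goes from 53.2% to 0.134%.

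Whether the genes came up in the same cells was described over thinned treated cells, for genes in at least 5% of them. These were POMC, VGF, PCSK1N and GAL in H1299, and those 4 with CCK in HCT116. Each pair was read in both directions, as the share of cells with the first gene among cells with the second over that among cells without the second. In H1299 this ratio was 0.852 to 1.28 over 6 pairs, and the intervals of the shares overlapped in all 12 directions. In HCT116 it was 0.890 to 1.54 over 10 pairs, and the intervals were apart in 3 of 20 directions, which were both directions of POMC with CCK and 1 direction of POMC with PCSK1N. POMC was found in 17.8% (16.0 to 19.8) of cells with CCK and 14.2% (12.8 to 15.7) of cells without it, and CCK in 46.9% (42.9 to 50.9) of cells with POMC and 40.2% (38.5 to 41.9) of cells without it. POMC was found in 22.3% (16.8 to 28.5) of cells with PCSK1N and 15.3% (14.2 to 16.5) of cells without it, whereas PCSK1N was found in 7.63% (5.66 to 10.0) of cells with POMC and 4.96% (4.24 to 5.75) of cells without it, where the intervals overlap. Both directions of a pair rest on the same cells and describe the same association, so no asymmetry is read from them. Cells of 1 library share their culture and capture, and no test was made. At 3300 counts per cell, 51.9% of treated H1299 cells had at least 1 of the 10 genes and 12.9% at least 2, against 12.2% and 0.587% with DMSO. In HCT116 the shares were 84.8% and 46.4% with DAC+SB and 73.6% and 2.60% with DMSO, where GAL alone was in 73.0%. These shares depend on the share of each gene taken alone, and the genes were chosen on treated against control counts. No such share was computed for other genes. Nothing is therefore read from them on whether the genes came up in the same cells.

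The study set out to follow TE transcripts cell by cell, so the TE share was compared between thinned treated cells with and without a gene. In HCT116 the median TE share was 5.18% in the 1620 cells with CCK and 4.52% in the 2305 cells without it, at mean mitochondrial shares of 19.4% and 19.5%. The 106 cells with CHGA had a median TE share of 6.29%, against 4.79% in the others. For GAL the HCT116 medians were 4.58% in cells with it and 5.21% in cells without it, and the H1299 medians 2.73% and 2.55%, so the sign differed between lines. VGF also differed in sign, at 5.06% with it and 4.79% without it in HCT116, against 2.45% and 2.61% in H1299. In H1299 the median was likewise lower in cells with CHGB, at 2.36% against 2.58%. With and without SCG2 the H1299 medians were 2.55% and 2.58%, or 84 and 85 TE counts. The means were 3.085% and 3.081%, so no direction is read for SCG2. The cells with SCG2 had a mean mitochondrial share of 12.15% against 10.0% and a median of 13669 counts before thinning against 15901, and those with CHGB 10.7% against 10.1% and 14853.5 against 15835.5. For PCSK1N the TE medians were higher in cells with it in both lines, at 2.73% against 2.55% in H1299 and 5.39% against 4.82% in HCT116. The H1299 means were 3.13% and 3.08%, so the size of that difference depends on the measure. H1299 cells with PCSK1N had a mean mitochondrial share of 9.23% against 10.2%, and a median of 16870.5 counts before thinning against 15677.5. In HCT116 these were 18.6% against 19.5% and 9934 against 9113.5. HCT116 cells without GAL also had a mean mitochondrial share of 21.2%, against 18.2%, and a median of 8168.5 counts before thinning against 9730. The part of mitochondrial share and depth in the TE differences of CHGA, GAL, VGF, CHGB, SCG2 and PCSK1N was not tested. The CCK difference of 0.667 percentage points was 0.697 without cells over 25% mitochondrial counts. For POMC the medians were 2.73% against 2.55% in H1299 and 4.97% against 4.82% in HCT116, at mean mitochondrial shares of 9.84% against 10.1% and 18.5% against 19.7%. The POMC differences of 0.182 and 0.152 percentage points were 0.500 and 0.400 when cells were thinned to 2000 counts, and 0.333 and 1.03 when a cell needed 2 counts. Without cells over 25% mitochondrial counts they were 0.182 and 0.303, so the size of the POMC difference depends on these settings.

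The genes whose levels over the 4 libraries lay closest to POMC and CCK were found among 15504 others by Euclidean distance in log2(CPM + 1). For POMC they were RP11-973H7.4 (distance 0.566), AC095067.1 (0.715), C5orf27 (0.819), DNAH3 (0.949) and RP11-70C1.1 (1.08). DNAH3, an axonemal dynein heavy chain gene, had 0 and 7 counts with DMSO and 2238 and 2497 with DAC+SB (H1299 first). The others are clone-named or uncharacterised transcripts, such as AC095067.1 with 0 counts in both DMSO libraries and 4150 and 3622 with DAC+SB. For CCK they were IL16 (distance 1.59), RP1-69M21.2 (1.74), RP11-805L22.3 (1.93), MIR7-3HG (2.06) and RP11-432M8.22 (2.12). IL16, a cytokine gene, had 1 and 427 counts in H1299 and 7 and 3881 in HCT116. The distances of CCK were larger than those of POMC. With 4 libraries the measure describes likeness of level only.

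Enzymes that process such precursors were listed next. Of 11 such enzymes, 8 reached 100 counts in each line and none of these was 4-fold higher or lower. Of all genes, 11.0% (H1299) and 9.63% (HCT116) were higher and 0.349% and 3.69% lower, so the count says little about the list. The median log2 ratios of the enzymes at the minimum were -0.17 and -0.25, against -0.07 and -0.23 over all genes. PCSK1, the convertase that cuts POMC into ACTH, had 0 and 14 counts in H1299 and 0 and 3 in HCT116. PCSK2, which cuts further to melanocortins, had 0 and 4 counts in H1299 and 0 and 42 in HCT116. CPE, the carboxypeptidase that trims basic residues, had 213 and 443 counts in H1299 and 882 and 399 in HCT116, log2 ratios of 1.10 and -0.46. PAM, the amidating enzyme that CCK peptides need, had 3833 and 2503 counts in H1299 and 9287 and 1495 in HCT116, at log2 ratios of -0.57 and -1.95. The furin gene FURIN was at -0.48 and -0.66. QPCT, the glutaminyl cyclase gene, had 119 and 433 counts in H1299 and 13 and 52 in HCT116, at log2 ratios of 1.91 (1.62 to 2.22) and 2.69 (1.79 to 3.69).

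Other hormone and neuropeptide precursors were listed for comparison, of which 59 of 64 were in the table. In H1299, 15 had at least 100 counts and 10 were at least 4-fold higher. In HCT116, 13 had at least 100 counts and 7 were higher. None was 4-fold lower in either line. Over all genes 11.0% (H1299) and 9.63% (HCT116) were higher, and 0.349% and 3.69% were lower, so finding none lower says little. The median log2 ratios of the listed genes at the minimum were 5.30 and 3.42, against -0.07 and -0.23 over all genes. In both lines most of those listed genes reached 100 counts only with DAC+SB, which favours high ratios. The list was chosen with earlier results known. GAST, the gene of gastrin, the closest relative of CCK, went from 4 counts to 2467 in HCT116, where its log2 ratio was 9.95 (8.60 to 11.83). In H1299 it went from 0 to 12. UTS2B, a urotensin gene, had 7 and 1205 counts in H1299 and 4 and 325 in HCT116. NPPC, of C-type natriuretic peptide, had 9 and 530 in H1299 and 49 and 2251 in HCT116. KISS1 had 5 and 306 counts in H1299 and 7 and 16 in HCT116. NPB had 15 and 770 in H1299 and 136 and 903 in HCT116, and the tachykinin gene TAC1 went from 0 to 97 and from 0 to 112. GAST and CCK were thus both far higher in treated HCT116 than in treated H1299.

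Receptors for the 10 genes' peptides were mostly rare. Of 14 found, 4 had at least 100 counts in H1299, of which 1 was 4-fold higher, and 3 in HCT116, of which 1 was 4-fold lower, against 11.0% of all genes higher in H1299 and 3.69% lower in HCT116. MC5R, a melanocortin receptor, was higher in both lines, with 72 and 1227 counts in H1299 at a log2 ratio of 4.14 (3.80 to 4.50), and 13 and 77 counts in HCT116 at 3.25 (2.39 to 4.23), below the minimum of 100. NTSR1, the neurotensin receptor, was lower with DAC+SB, with 781 and 232 counts in H1299 and 1381 and 151 in HCT116, log2 ratios of -1.70 (-1.92 to -1.49) and -2.51 (-2.76 to -2.26). MC1R was at 0.12 and -0.20 and the neurotensin-binding sorting receptor SORT1 at -0.04 and -0.25. The cholecystokinin receptor genes CCKAR and CCKBR had at most 12 counts in any library.

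Of 25 vesicle and secretion genes found, 21 had at least 100 counts in H1299, of which 7 were at least 4-fold higher, and 20 in HCT116, of which 3 were higher. None was 4-fold lower. Over all genes 11.0% and 9.63% were higher, so the HCT116 count is near that share. The shares lower were 0.349% and 3.69%, so finding none lower says little. The median log2 ratios of the vesicle and secretion genes at the minimum were 1.25 and 0.20, against -0.07 and -0.23 over all genes. Most of the 7 genes higher in H1299 reached 100 counts there only with DAC+SB, which favours high ratios. Nothing is therefore read from the H1299 count or median. PTPRN, of the vesicle membrane protein IA-2, was higher in both lines, from 23 to 358 counts and from 4 to 230. RAB3C had 6 and 137 counts in H1299 and 0 and 79 in HCT116. SYT7, a calcium sensor of release, differed between lines, at 4.04 (3.01 to 5.28) on the log2 scale in H1299 against -0.71 (-0.93 to -0.50) in HCT116. Of 25 regulators, 1 of 14 at the minimum was 4-fold higher in H1299 and 4 of 13 in HCT116, where 11.0% and 9.63% of all genes were, so the H1299 count is near that share. In H1299 it was PITX1 at 2.16, which had 720 and 144 counts in HCT116, at -1.64 (-1.90 to -1.38). The 4 in HCT116 were PAX6 at 2.19, NR4A1 at 2.28, ATF3 at 2.10 and ST18, which went from 0 to 153 counts. REST, the repressor of many neuronal and granin genes, had 2339 and 1536 counts in H1299 and 3800 and 1630 in HCT116, log2 ratios of -0.56 and -0.53.

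The 12 markers of enteroendocrine or pulmonary neuroendocrine cells were checked as well. Their sum went from 225 to 364 CPM in H1299 and from 10.8 to 114 in HCT116. INSM1, NEUROG3, DDC and CALCA were at 0 in H1299 DMSO, and INSM1, NEUROG3, NKX2-2, UCHL1 and CALCA in HCT116 DMSO, and none was at 0 with DAC+SB. In treated H1299, INSM1, NEUROG3, DDC and CALCA had 5, 3, 3 and 30 counts. In treated HCT116, INSM1, NEUROG3, NKX2-2 and CALCA had 10, 2, 10 and 27. Blood cell markers at 0 also went from 4 to 1 in H1299 and from 3 to 0 in HCT116. Fibroblast markers at 0 went from 2 to 0 and from 3 to 0. UCHL1 made up most of the sum in every library but HCT116 DMSO, with 13620 and 20831 counts in H1299 and 0 and 3193 in HCT116. Only 4 of the 12 reached 100 counts in each line, of which 0 were 4-fold higher in H1299 and 3 in HCT116 (PAX6, SYP and UCHL1), against 11.0% and 9.63% of all genes. The 5 fibroblast markers summed to 0.263 and 17.3 CPM in H1299 and 8.17 and 19.0 in HCT116. The part of these markers in the results above was not tested.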

How the data were processed

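Per the labels, both lines were profiled with 10x Genomics 5′ single-cell RNA-seq with cell barcodes and molecular identifiers. The authors deposited whole-number counts per feature and cell in 2 tables, 1 for genes and 1 for TE loci. The submitters' processing notes name CASAVA, STAR and GRCh38 (hg38). The counting tool, its annotation and use of strand, the cell filter and whether a count is a molecular identifier: not given in the sources used here. Cells were assigned to libraries by the library name in each cell's identifier. Every cell was kept, and no doublet caller was run.

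Features were summed per gene name (2419 joined names were left out, none with a member) and per library with Python 3.11.15, numpy 2.4.6, scipy 1.17.1 and pandas 2.3.3. Levels carry exact Poisson, ratios exact conditional binomial and shares exact Clopper-Pearson intervals at 95%. Differences between lines use a normal approximation on the log scale. A gene at 0 counts was set to 3 counts for a bound. Calls needed 100 counts in the higher library and a 4-fold ratio. With 1 library per group no test was run. Cells were thinned by a seeded hypergeometric draw, and the scripts were tested on simulated data.

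The members and gene lists were chosen with earlier results of these data known. All 10 members are named, with the 5 nearest genes of POMC and CCK, and at most 6 genes of largest ratio per list past 4-fold, plus REST, PCSK1, PCSK2, CPE, PAM and receptors with 100 counts. FURIN, QPCT, CCKAR, CCKBR, EPCAM, SYP, UCHL1, AC018358.1 and AC123768.1 were named after their values or positions were seen. So were the markers VIM, COL4A1, COL4A2, ESRP1, LGALS4 and TSPAN8. The alternatives were other denominators, the choice of features, minimum counts, folds, cells and thinning depths, and, chosen after seeing the data, 9 counts for each numbered feature unlisted in a DMSO library.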

Additional observations from a re-analysis of the deposited data

Results flagged for a closer look

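GAL and SCG5 had ratios of opposite sign in the lines, and this difference was not tested, since each line had 1 library per treatment. For GAL the log2 ratio was 4.84 in H1299, against -0.45 in HCT116. For SCG5 it was 3.34 in H1299, against -0.29 in HCT116, where the interval (-0.95 to 0.34) includes 0 and the sign flips with the size factor (0.02) and as a mean over cells (0.14).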

How the results depend on the processing

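No ratio of the 10 genes whose interval left out 0 changed direction under any alternative run. The HCT116 ratio of SCG5, whose interval includes 0, became 0.02 and 0.14 under scalings. With a minimum of 1000 counts, 4 of the 10 genes were eligible in each line and 3 passed 4-fold upward. With numbered features kept only if both libraries listed them, 6 were eligible in each line, and 3 passed in H1299 and 4 in HCT116, where over all genes 1113 of 14065 and 794 of 12907 passed. Over all genes in H1299, 5539 were higher and 397 lower with no minimum, 200 and 28 of 7330 with 1000 counts, and 2673 and 1072 at 2-fold, and 5 were lower at 8-fold. In HCT116 these were 5908 and 868, 170 and 252 (of 6603), and 2192 and 2706, and 69 were lower at 8-fold. With the size factor 264 were lower in HCT116. The fewer counts behind each stricter choice are part of its construction. Among ratios, the choice of features moved values most, by up to -3.42 on the log2 scale, for CCK in HCT116. Means over cells moved them by -0.26 to 0.65, and leaving out the 5% of cells with most counts by -0.28 to 0.88. Leaving out cells over 25% mitochondrial counts moved them by -0.29 to 0.06. The fewest DMSO counts, 0 to 3, lay behind the ratios of POMC, CHGA and NTS in both lines and of CCK and PCSK1N in HCT116. With 9 unlisted counts added to DMSO libraries, an alternative chosen after seeing the data, the ratios above 0 stayed above 0, the lowest being NTS in H1299 at 0.73. No paired analysis was possible because each group had 1 library and no test was made.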
